A study of Mus musculus with 10 samples.

Results

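Interstitial collagens are the chains that form the fibres between cells, together with the chains that attach to those fibres, link them to membranes or build networks beside them. A collagen molecule is a triple helix of 3 chains. It is hydroxylated and folded in the endoplasmic reticulum, secreted as a precursor with propeptides at its ends, trimmed outside the cell and then assembled into fibrils. Fibroblasts are its main source in most organs, and types I and III make up the bulk of the fibres they lay down.

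The genes described here were chosen by name. They are all genes of the count table whose mouse symbol is that of a collagen alpha chain, without types IV, VI, XV and XVIII, plus 6 genes of collagen modification and maturation, Plod1, Plod2, Plod3, Serpinh1, Bmp1 and Pcolce. The rule found 29 genes among 22731, of which 23 were collagen chains. After the filter on low counts, 23 of the 29 were tested (17 chains and the 6 processing genes) among 16344 genes in all. Another 7 annotated chains of these types had no row and were not analysed here. A gene can pass that filter through a single group in which it is high, so counts over tested members are not counts over all members.

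The cells were mouse fibroblasts of the genotype given as C57B6, and the series title places the study in the pancreas. They were cultured alone (4 libraries), with wild-type group 2 innate lymphoid cells, ILC2s (WT coculture, 3 libraries), or with IL-13 knockout ILC2s (IL13KO coculture, 3 libraries). ILC2s are tissue lymphocytes without antigen receptors that secrete IL-5 and IL-13. Before culture the fibroblasts had been sorted for podoplanin and Pdgfra and against CD31, Epcam and CD45, and the ILC2s for KLRG1. Afterwards the fibroblasts were sorted again, through a gate that the design text gives as CD45-positive. No age, sex, culture time or number of animals is attached to a library, and nothing says that libraries came from separate animals, so p-values measure only the spread between these libraries. WT cocultures are named 1, 3 and 4 after their columns.

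Libraries held 10710410 to 14366199 counts in monoculture, 18801744 to 22087459 in WT coculture and 17277432 to 17661229 in IL13KO coculture. The gene deleted from the knockout ILC2s, Il13, had 30 to 121 reads in the WT cocultures and 0 in each of the other libraries. Sort markers of fibroblasts were abundant in every group, with mean levels of 372, 633 and 747 counts per 1000000 (CPM, scaled by TMM) for Pdgfra in monoculture, WT and IL13KO coculture, and 259, 328 and 285 for Pdpn. Over the 6 fibroblast markers the summed level was 3495 to 5229 CPM in monoculture, 1774 to 1851 in WT and 3070 to 3711 in IL13KO coculture. Of 6 leukocyte markers the sum was 2.89 to 4.52 CPM in monoculture, 94.6 to 118 in WT and 13.5 to 20.9 in IL13KO coculture. Most of that was Cd53, and Ptprc, the gene of CD45, had at most 9 reads in any library. Mural and stellate cell markers (6 genes) summed to 86.5 to 97.3, 32.3 to 33.1 and 97.8 to 135 CPM in the same order, endothelial markers (2 of 4 in the table) to at most 0.769 and epithelial markers (3 of 4) to at most 3.33. ILC2 markers (7 of 8) summed to 56.8 to 73.4 CPM over all libraries, most of it Rora. Rora stood at 63.7 CPM in monoculture, 41.7 in WT and 55.25 in IL13KO coculture. Il5 was at 0 in monoculture, 12.4 CPM in WT and 2.01 in IL13KO coculture, and Gata3 at 1.36, 5.01 and 2.69 CPM. Of 4 cartilage genes, Sox9 and Comp were in the table, with summed levels of 35.8 to 45.1, 105 to 142 and 84.4 to 112 CPM.

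RefSeq promoter sequences on GRCm38.p6, the build of the counts, were found for 21 of the 29 genes. The 250 bases before the start are shown for the 3 chains with the smallest adjusted p between the cocultures among those with an entry. All of these were lower with wild-type ILC2s. Col14a1, whose edgeR adjusted p of 0.00033 was smaller than that of Col3a1 and Col8a1, had no entry. Capitals mark matches on either strand to 5 motifs: the palindrome of TTC and GAA with 4 bases between (which STAT6, the transcription factor activated by IL-4 and IL-13, can bind), CAGAC (in many SMAD sites), the CCAAT box, the TATA box (spelled TATAAA) and the GC box (spelled GGGCGG).
Col23a1, chr11:51289670-51289919, plus strand: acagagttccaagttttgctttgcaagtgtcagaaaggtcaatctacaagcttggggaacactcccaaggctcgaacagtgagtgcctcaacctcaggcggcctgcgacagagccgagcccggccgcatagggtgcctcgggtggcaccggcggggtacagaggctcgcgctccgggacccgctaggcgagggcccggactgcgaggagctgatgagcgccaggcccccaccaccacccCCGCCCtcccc
Col3a1, chr1:45311288-45311537, plus strand: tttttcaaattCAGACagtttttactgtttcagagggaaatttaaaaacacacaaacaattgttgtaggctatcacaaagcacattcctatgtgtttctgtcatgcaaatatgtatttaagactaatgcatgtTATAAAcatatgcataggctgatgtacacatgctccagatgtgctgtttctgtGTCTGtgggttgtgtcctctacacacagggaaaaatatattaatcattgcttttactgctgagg
Col8a1, chr16:57754738-57754987, minus strand: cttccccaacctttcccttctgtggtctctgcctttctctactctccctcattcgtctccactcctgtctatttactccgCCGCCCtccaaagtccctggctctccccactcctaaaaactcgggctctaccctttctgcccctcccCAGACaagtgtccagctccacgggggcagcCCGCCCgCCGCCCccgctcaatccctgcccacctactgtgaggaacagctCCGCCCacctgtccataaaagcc
Col23a1 had 1 match, a GC box. Col3a1 had 2 CAGAC matches and 1 TATAAA match and no GC box, and Col8a1 had 4 GC boxes and 1 CAGAC match. The STAT6-type palindrome matched 0 of the 21 members' windows, against 5.85% of 32851 RefSeq windows of the same length. GC boxes were present in 13 of 21 (32.7% of all windows), CAGAC in 11 of 21 (42.2%), CCAAT in 7 of 21 (33.8%) and TATAAA in 5 of 21 (12.4%). A match describes these letters in this window only, and the motifs do not overlap each other in the sequences shown.

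Reads of the collagen chains took a larger part of the library in both cocultures. They made up 0.535, 0.424, 0.740 and 0.475% of all counts in monocultures 1 to 4, 1.47, 1.39 and 1.01% in WT cocultures 1, 3 and 4, and 2.33, 2.57 and 2.06% in IL13KO cocultures 1 to 3. The ranges of the groups were apart, with the IL13KO cocultures highest. Means were 0.544 ± 0.139% (SD, n = 4), 1.29 ± 0.246% (n = 3) and 2.32 ± 0.256% (n = 3). These shares, and the proportions of single chains below, were taken from raw counts and not corrected for GC content or length. In a bulk library, fewer cells of a type and less RNA per cell cannot be told apart.

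Col1a1, Col1a2 and Col3a1 together held 90.1 to 91.0% of the chains' counts in monoculture and 92.1 to 94.9% in the cocultures, but their proportions were not the same. Col1a1 held 17.3 to 23.0% of the chain counts in monoculture, 42.5 to 59.1% in WT and 48.5 to 51.5% in IL13KO coculture. Col1a2 went the other way, with means of 32.6 ± 4.32%, 15.9 ± 3.49% and 11.6 ± 0.511%. Col3a1 held 35.8 to 45.5%, 22.1 to 29.7% and 30.7 to 33.7%.

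**Figure D1:**
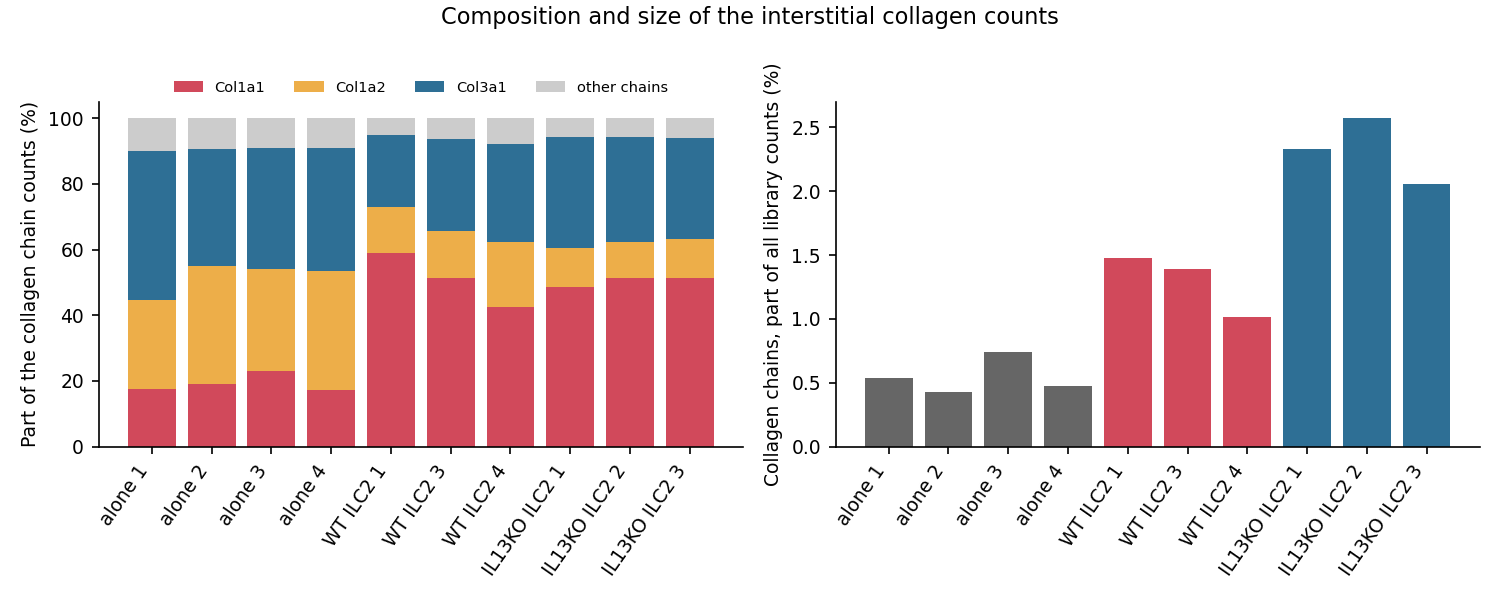
Left, the part of the collagen chain counts taken by Col1a1, Col1a2, Col3a1 and the other 20 chains in each library, in percent; right, the part of all library counts taken by the 23 chains, in percent. Col1a1 takes 17.3 to 23.0% of the chain counts in the 4 monocultures and 42.5 to 59.1% in the 6 cocultures, and the chains together take the largest part of the library in the IL13KO cocultures.

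Against monoculture, 13 of the 23 tested members rose and 3 fell in the WT coculture by edgeR's quasi-likelihood test at an adjusted p below 0.05. Of all genes, 62.5% were called, 32.8% higher and 29.7% lower. The members' median log2 fold change was 0.85, that of all genes 0.015. In the IL13KO coculture 18 of 23 rose and 0 fell (of all genes 57.4% were called, 30.1% higher and 27.3% lower), with a median of 1.47 against 0.002. Both comparisons share the same 4 monocultures. No member was lower in the IL13KO coculture at an unadjusted p below 0.05, by DESeq2 or by limma-voom either. Between the cocultures, 3 of 23 members were higher and 11 lower with wild-type than with IL13KO ILC2s (of all genes 23.3% were called, 11.6% higher and 11.7% lower), with a median of -0.62 against -0.004. Groups did not overlap for 16, 18 and 15 of the 23 members in the same order of comparisons, against 60.9%, 59.2% and 49.0% of all genes. Members have more GC than other genes, a median of 55.1% against 49.6%. When a smooth dependence on GC content and length was taken out of each library (GC and length correction), 11 members rose and 6 fell in the WT coculture, with a median of 0.25. Of all genes 34.0% then rose and 25.3% fell there, with a median of 0.11. In the IL13KO coculture 14 members rose and 2 fell (median 0.78), against 30.0% and 18.7% of all genes (0.13). Between the cocultures 3 members were higher and 12 lower (-0.56), against 12.4% and 13.0% of all genes (-0.01).

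**Figure D2:**
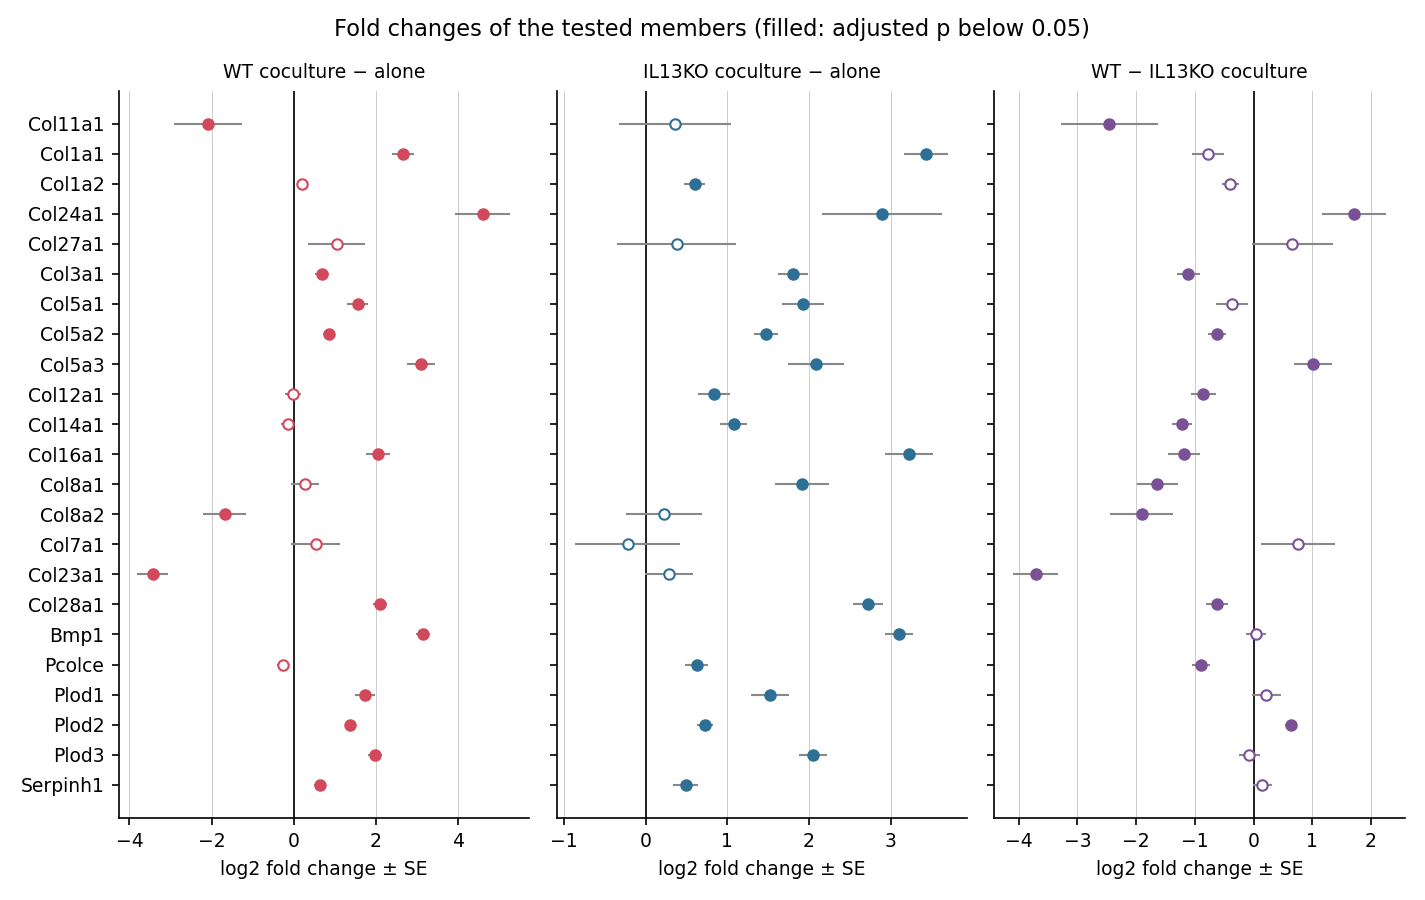
Log2 fold changes ± SE (x axes) of the 23 tested members, ordered by role, for WT coculture minus alone, IL13KO coculture minus alone and WT minus IL13KO coculture. Filled points have an adjusted p below 0.05: 16, 18 and 14 members, with 11 of the last 14 to the left of 0.

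The 2 chains of type I collagen, the main protein of connective tissue fibres, parted in culture. A type I molecule usually holds a pair of alpha-1 chains from Col1a1 and a single alpha-2 chain from Col1a2. Col1a1 (ENSMUSG00000001506, chromosome 11, 94936224 to 94953042) stood at 951, 817, 1682 and 830 CPM in monocultures 1 to 4, at 8633, 7276 and 4361 in WT cocultures 1, 3 and 4, and at 11334, 12987 and 10389 in IL13KO cocultures 1 to 3. The 3 groups did not overlap, and WT coculture 4 was the lowest of the cocultures. Group means were 1070 ± 413, 6756 ± 2183 and 11570 ± 1315 CPM (SD, n = 4, 3 and 3). The log2 fold change was 2.66 ± 0.26 (SE) in the WT coculture (edgeR adjusted p = 2.46e-06) and 3.44 ± 0.27 in the IL13KO coculture (1e-06). After GC and length correction the values were 1.64 and 2.20, both called.

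Between the cocultures, Col1a1 differed by -0.78 ± 0.28 (WT minus IL13KO) and missed the threshold (edgeR adjusted p = 0.0588). Of 22 alternative runs, 16 did not call the difference either. The difference was called by DESeq2 (0.0327) and limma-voom (0.0203), with only these groups in the fit (0.0113), after GC and length correction (0.0294), without monoculture 3 (0.0109) and without WT coculture 1 (0.0404).

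Col1a2 (ENSMUSG00000029661, chromosome 6, 4504814 to 4541544) stood at 1476, 1538, 2272 and 1736 CPM in monoculture, 2011, 1993 and 2049 in WT and 2796, 2793 and 2382 in IL13KO coculture. Monoculture 3 lay above all WT cocultures, and the IL13KO cocultures lay above all other libraries. The log2 fold change was 0.20 ± 0.13 with WT ILC2s (edgeR adjusted p = 0.201) and 0.60 ± 0.13 with IL13KO ILC2s (0.00178). Both turned negative after GC and length correction (-0.56, 0.000193, and -0.31, 0.014), and the first was called as higher without monoculture 3 (0.35, 0.00588). Between the cocultures the difference was -0.40 ± 0.14 (0.0592), and 17 of 22 alternative runs did not call it either. That difference was called by DESeq2 (0.0464) and limma-voom (0.0325), with only these groups in the fit (0.00716) and without monoculture 1 (0.0317) or 3 (0.00749).

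Per kilobase of the longest annotated transcript, the ratio of Col1a1 to Col1a2 counts was 0.581, 0.479, 0.668 and 0.431 in monocultures 1 to 4. It was 3.87, 3.29 and 1.92 in WT cocultures 1, 3 and 4, and 3.66, 4.19 and 3.93 in IL13KO cocultures 1 to 3. All cocultures were above all monocultures, while the cocultures overlapped each other. The ratio of Col1a1 to Col3a1 was 0.360 to 0.585 in monoculture, 1.34 to 2.51 in WT and 1.35 to 1.57 in IL13KO coculture. In a plain ranking of levels per kilobase, Col3a1 and Col1a2 stood above Col1a1 in monoculture (382 ± 99.2, 328 ± 67.7 and 180 ± 69.6 CPM per kilobase), and Col1a1 stood above both in WT (1139 ± 368 against 615 ± 90.9 and 377 ± 5.35) and IL13KO coculture (1951 ± 222 against 1330 ± 188 and 497 ± 44.5). The monoculture values of Col3a1 and Col1a2 lay within their spread of each other, and their order with Col1a1 depends on the transcript length: over all annotated exon bases the levels were 216, 141 and 163.

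**Figure D3:**
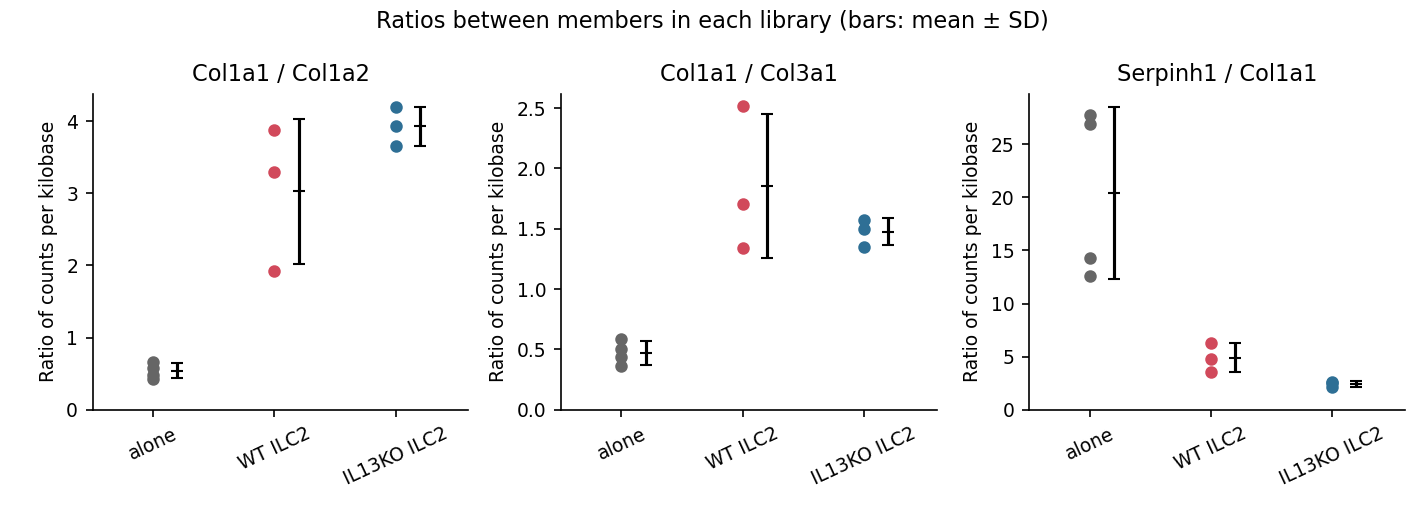
Ratios of counts per kilobase of transcript in each library, with mean ± SD beside the points: Col1a1 to Col1a2, Col1a1 to Col3a1 and Serpinh1 to Col1a1 (y axes start at 0). The first ratio is at most 0.668 in every monoculture and at least 1.92 in every coculture, and the last falls from 12.6 to 27.8 in monoculture to 2.14 to 2.62 in the IL13KO cocultures.

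Col3a1 (ENSMUSG00000026043, chromosome 1, 45311538 to 45349706) encodes type III collagen, which forms thin fibrils with type I in soft tissues. Its level was 2478, 1530, 2697 and 1795 CPM in monoculture, 3223, 3996 and 3044 in WT and 7863, 8141 and 6202 in IL13KO coculture. All 3 groups were apart, and the step from WT to IL13KO coculture was the larger. The rise was 1.80 ± 0.18 with IL13KO ILC2s (edgeR adjusted p = 5.82e-06) and 0.69 ± 0.18 with WT ILC2s (0.0048). The latter was not called after GC and length correction (0.19, 0.326). The cocultures differed by -1.11 ± 0.20 (0.00132), a call that held in every alternative run.

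Type V collagen is a minor fibrillar type that starts and limits fibrils of type I. Col5a2 (ENSMUSG00000026042), the neighbour of Col3a1 on chromosome 1 (45374321 to 45503282, opposite strand), rose in both cocultures, from 201 to 311 CPM in monoculture to 396, 494 and 451 with WT and 707, 747 and 613 with IL13KO ILC2s. The groups were again apart and in the order of Col3a1. Fold changes were 0.85 ± 0.14 and 1.47 ± 0.15, and the cocultures differed by -0.62 ± 0.16 (edgeR adjusted p = 0.0115), not called without IL13KO coculture 2 (0.0558).

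Col5a1 stood at 45.9, 23.0, 52.3 and 23.4 CPM in monoculture, 109, 122 and 87.1 in WT and 116, 155 and 138 in IL13KO coculture. It rose in both (1.56 ± 0.26 and 1.92 ± 0.26, or 0.64 and 0.78 after GC and length correction), and the cocultures overlapped (-0.36 ± 0.27, edgeR adjusted p = 0.368).

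Col5a3, the third type V chain, ran against Col5a2 between the cocultures, where Col5a1 was not called. It stood at 2.87, 0.815, 3.23 and 2.04 CPM in monoculture, 21.0, 21.7 and 14.0 in WT and 7.09, 12.3 and 8.67 in IL13KO coculture, so the WT cocultures were highest. It rose by 3.10 ± 0.34 and 2.09 ± 0.34. After GC and length correction these became 1.89, still called, and 0.59, no longer called (edgeR adjusted p = 0.125). The difference of 1.02 ± 0.32 between the cocultures (0.0381) was not called without WT coculture 1 or 3 or IL13KO coculture 1 or 3 (0.105, 0.131, 0.155 and 0.117) or with libraries thinned to equal depth (0.0812).

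The other tested fibrillar chains were low. Col24a1, a fibrillar chain of bone and cornea, had 0, 1, 0 and 9 reads in monoculture, 84, 144 and 67 in WT and 34, 29 and 16 in IL13KO coculture. Its level was 4.92 ± 2.13 CPM in WT and 1.49 ± 0.528 in IL13KO coculture, against 0.177 ± 0.306 in monoculture. The groups were apart and the WT cocultures highest. It was called as higher in both (4.60 ± 0.67 and 2.89 ± 0.74, or 7.13 and 5.42 without monoculture 4, and 5.37 and 3.68 by limma-voom). The WT cocultures were above the IL13KO ones by 1.71 ± 0.55 (edgeR adjusted p = 0.038), a call that ended without any of the 6 coculture libraries in turn (0.0571 to 0.198).

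Col11a1, a chain of cartilage fibrils, had 6 to 26 reads in monoculture, 2 to 8 in WT and 3 to 45 in IL13KO coculture. It was called as lower with WT ILC2s, both against monoculture (-2.10 ± 0.83, edgeR adjusted p = 0.0415) and against IL13KO coculture (-2.46 ± 0.83, 0.0495). The first call ended without monoculture 3 (-1.51, 0.13) or 4 (0.0515), without any of WT cocultures 1, 3 and 4 (0.0733, 0.0848 and 0.132) and without IL13KO coculture 1 (0.0559). The second ended without monoculture 4 (0.0587), without any WT coculture (0.0891, 0.124 and 0.168) and without IL13KO coculture 1 (0.127) or 3 (-1.81, 0.21). limma-voom made neither call (0.117 and 0.201). Col27a1, another fibrillar chain, had at most 18 reads in a library and was called in no comparison.

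Fibril-associated chains coat the fibrils and space them. The 3 that could be tested were each called lower with wild-type than with IL13KO ILC2s, as were 11.7% of all genes. Col14a1 (ENSMUSG00000022371, chromosome 15, 55307750 to 55520803) stood at 131, 113, 192 and 127 CPM in monoculture, 121, 118 and 144 in WT and 313, 326 and 252 in IL13KO coculture. WT cocultures and monocultures overlapped (-0.15 ± 0.16, edgeR adjusted p = 0.459), and the IL13KO cocultures lay above both. The IL13KO rise was 1.08 ± 0.16 (0.000117) and the difference between the cocultures -1.22 ± 0.18 (0.00033), called in every alternative run. Against monoculture, WT coculture was called as lower after GC and length correction (-0.42, 0.0226).

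Col12a1, a long chain found in tendon and other loaded tissue, had the same pattern. It stood at 61.5, 35.0, 72.0 and 49.9 CPM in monoculture, 43.2, 58.7 and 60.0 in WT and 100.1, 97.6 and 94.6 in IL13KO coculture. With WT ILC2s the fold change was -0.01 ± 0.20 (edgeR adjusted p = 0.955), with IL13KO ILC2s 0.84 ± 0.19 (0.00258), and between the cocultures -0.85 ± 0.21 (0.0105).

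Col16a1, a minor chain that associates with fibrils and microfibrils, rose in both cocultures. Its level was 0.929 to 2.30 CPM in monoculture, 6.64, 7.43 and 4.31 in WT and 10.7, 16.7 and 14.3 in IL13KO coculture, with no overlap between the groups. Fold changes were 2.05 ± 0.30 and 3.23 ± 0.29 (0.83 and 1.75 after GC and length correction). The difference of -1.18 ± 0.27 (edgeR adjusted p = 0.00787) was not called without IL13KO coculture 2 (0.0508).

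The transmembrane chain Col23a1 (ENSMUSG00000063564, chromosome 11, 51289920 to 51583918), whose ectodomain binds integrins and can be shed, showed the largest difference between the cocultures of all tested members. It had 99, 67, 61 and 41 reads in monoculture, 132, 109 and 109 in IL13KO coculture and 10, 12 and 8 in WT coculture. In CPM these were 8.36, 4.96, 5.62 and 2.88, then 7.49, 6.20 and 6.18, and 0.449, 0.615 and 0.431 with WT ILC2s. Monocultures and IL13KO cocultures overlapped (0.29 ± 0.29, edgeR adjusted p = 0.415), and each WT coculture lay below all of them. The fold change with WT ILC2s was -3.43 ± 0.38 against monoculture (5.89e-06) and -3.71 ± 0.38 against IL13KO coculture (2.35e-05), that is 13.1-fold lower. Both calls held in every alternative run, at -4.16 for the first after GC and length correction.

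Network chains of type VIII, which form hexagonal lattices under endothelium and in vessel walls, were also lower with WT than with IL13KO ILC2s. Col8a1 stood at 6.33, 1.93, 6.64 and 6.40 CPM in monoculture, 6.33, 6.61 and 6.25 in WT and 23.4, 12.7 and 23.8 in IL13KO coculture. Only the IL13KO cocultures stood apart, by 1.91 ± 0.33 from monoculture (edgeR adjusted p = 0.000327) and by -1.64 ± 0.35 (WT minus IL13KO, 0.00468) from WT coculture. Col8a2 had 12 to 28 reads in monoculture, 2 to 16 in WT and 26 to 41 in IL13KO coculture. It was lower with WT ILC2s against monoculture (-1.68 ± 0.53, 0.0138, or -2.75 after GC and length correction). Against IL13KO coculture it was lower too (-1.91 ± 0.54, 0.0217), a call that ended without WT coculture 1 or 4 (0.0515 and 0.0658) and without IL13KO coculture 1 or 2 (0.0642 and 0.0861).

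Col28a1, a chain with von Willebrand factor domains that is best known beside peripheral nerve, rose from 6.25 to 9.11 CPM in monoculture to 29.4, 35.8 and 35.2 in WT and 65.8, 45.2 and 43.4 in IL13KO coculture. The groups were apart (2.10 ± 0.18 and 2.72 ± 0.18). Between them the difference was -0.62 ± 0.18 (edgeR adjusted p = 0.0248), a call that ended without any WT coculture in turn (0.0597 to 0.0902), without IL13KO coculture 1 (-0.40, 0.152) and at equal depth (0.0514). Col7a1, the chain of the anchoring fibrils of skin, had 2 to 33 reads per library and was called in no comparison, but was lower in the IL13KO coculture after GC and length correction (-1.74, 0.0477).

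The 6 chains too low to test were Col9a3, Col10a1, Col13a1, Col17a1, Col20a1 and Col22a1, with at most 15 reads in any library. Col13a1 and Col17a1, transmembrane chains, had 0 reads in the monocultures and 21 and 11 over the WT cocultures. Their levels were 5.85-fold and 3.06-fold that of a floor of 3 counts over the monocultures. No counting error was put on the 21 and 11 reads, so these ratios are not lower limits. Of the Col13a1 reads 15 were in WT coculture 1, and without it the ratio to the floor was 2.65-fold. Without WT coculture 4 the ratio to the floor for Col17a1 was 2.01-fold. Col22a1 had 29 reads over the WT cocultures and 1 over the monocultures, a ratio of 24.2 with an exact 95% counting interval of 4.02 to 989. The interval covers counting error only, and the floor only that of the monocultures.

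**Figure D4:**
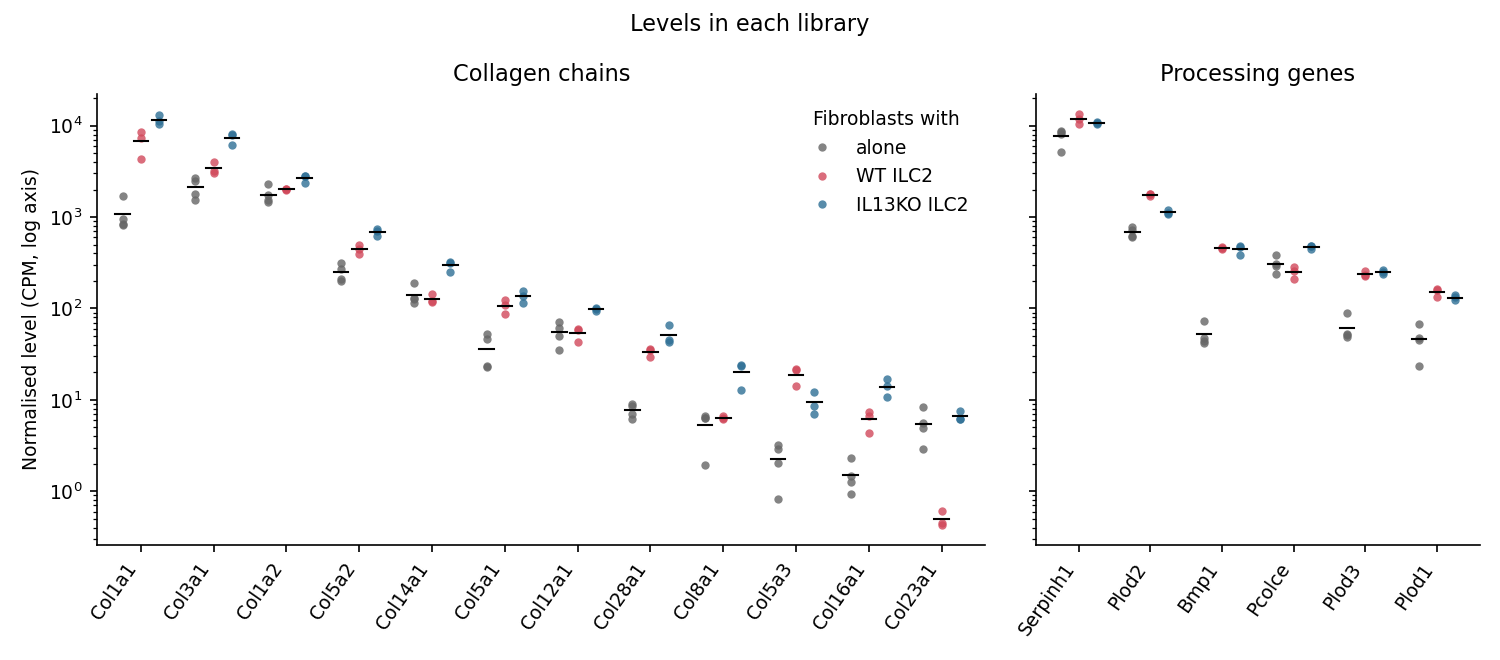
TMM-normalised levels (CPM, log y axis) of 12 collagen chains and the 6 processing genes; points are libraries and lines are group means. Col1a1, Col3a1 and Col14a1 are highest in the IL13KO cocultures, Col5a3 and Plod2 in the WT cocultures, and Col23a1 lies between 0.431 and 0.615 CPM in the WT cocultures and at 2.88 or more elsewhere.

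Of the 6 genes that modify and mature collagen, 5 rose in the WT coculture, where 32.8% of all genes rose, and 6 in the IL13KO coculture (30.1%). After GC and length correction the calls of Serpinh1 in both cocultures and of Pcolce in the IL13KO coculture were lost. Serpinh1 (ENSMUSG00000070436, chromosome 7, 99345376 to 99353239) encodes HSP47, a chaperone that binds folded procollagen. It was the most abundant member per kilobase in every group, at 5203, 8703, 8134 and 8567 CPM in monoculture, 11750, 13413 and 10509 in WT and 11094, 10666 and 10433 in IL13KO coculture. The monocultures lay below both cocultures, which overlapped. Fold changes were 0.64 ± 0.15 (edgeR adjusted p = 0.00266) and 0.49 ± 0.15 (0.0148), and after GC and length correction neither was called (0.25, 0.0742, and 0.03, 0.837). Per kilobase, Serpinh1 exceeded Col1a1 by 12.6 to 27.8 times in monoculture, 3.55 to 6.28 times in WT and 2.14 to 2.62 times in IL13KO coculture.

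The 3 lysyl hydroxylases prepare collagen for glycosylation and crosslinks, and Plod2 acts on the telopeptides at the ends of the helix. Plod2 (ENSMUSG00000032374, chromosome 9, 92542223 to 92608428) stood at 599, 730, 627 and 779 CPM in monoculture, 1789, 1794 and 1710 in WT and 1188, 1089 and 1115 in IL13KO coculture. The groups were apart, with the WT cocultures highest. It rose by 1.37 ± 0.10 and 0.73 ± 0.10, and was the processing gene that was higher with WT than with IL13KO ILC2s (0.64 ± 0.10, edgeR adjusted p = 0.000796). The difference was 1.56-fold and was not shown to exceed 1.5-fold by the test against that size (0.656), and a gene of the other strand covers 6.42% of its exon bases.

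Plod1 rose from 23.7 to 67.6 CPM in monoculture to 135, 158 and 164 in WT and 133, 139 and 123 in IL13KO coculture (1.74 ± 0.23 and 1.52 ± 0.23). Plod3, whose product also glycosylates hydroxylysine residues, rose from 48.9 to 89.1 CPM to 226, 233 and 254, and to 261, 252 and 236 (1.98 ± 0.17 and 2.05 ± 0.17, or 1.19 and 1.14 after GC and length correction). The cocultures overlapped for both genes (0.21 ± 0.25, edgeR adjusted p = 0.583, and -0.07 ± 0.18, 0.814). Other genes cover 11.9% of the exon bases of Plod3.

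Bmp1 (ENSMUSG00000022098, chromosome 14, 70474558 to 70520234) encodes the protease that removes the carboxy-terminal propeptides of fibrillar procollagens. It had the largest rise among the processing genes, from 47.8, 44.3, 73.6 and 42.3 CPM in monoculture to 468, 454 and 446 in WT and 385, 482 and 468 in IL13KO coculture. Every coculture lay far above every monoculture (3.14 ± 0.17 and 3.10 ± 0.17, or 2.28 and 2.07 after GC and length correction), and the cocultures overlapped (0.04 ± 0.17, edgeR adjusted p = 0.909). Pcolce, which encodes an enhancer of that protease, behaved otherwise. It stood at 239, 291, 381 and 310 CPM in monoculture, 212, 260 and 287 in WT and 481, 486 and 449 in IL13KO coculture. It rose with IL13KO ILC2s (0.63 ± 0.14, 0.00207, or 0.26 and 0.0749 after GC and length correction). With WT ILC2s it stood at -0.27 ± 0.14 (0.114), called as lower without monoculture 1 (-0.38, 0.0166), with upper-quartile scaling (-0.39, 0.0287) and after GC and length correction (-0.58, 0.000808). Pcolce was lower in WT than in IL13KO coculture by 0.90 ± 0.15 on the log2 scale (0.00106).

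The calls of the 23 tested members over the 3 comparisons fell into a few recurring patterns. Of all genes, 62.5%, 57.4% and 23.3% were called in the single comparisons, and their share in each pattern was not computed. Col24a1, Col5a3 and Plod2 were higher in both cocultures and highest with WT ILC2s. Col16a1, Col28a1, Col3a1 and Col5a2 were higher in both and highest with IL13KO ILC2s, and 4 (Col12a1, Col14a1, Col8a1 and Pcolce) were higher with IL13KO ILC2s and not called with WT ILC2s. Col11a1, Col23a1 and Col8a2 were lower with WT ILC2s and not called with IL13KO ILC2s, and 6 were higher in both and not called between them. Of the 14 calls between the cocultures, those of Col3a1, Col14a1, Col8a1 and Col23a1 held in every alternative run, among them the test against a 1.5-fold change. Between the cocultures, the mural and stellate markers moved in the same direction as the chains that were lower with WT ILC2s. All 6 were detected in every group. Their summed level was 86.5 to 97.3 CPM in monoculture, 32.3 to 33.1 in WT and 97.8 to 135 in IL13KO coculture. Rgs5 stood at 8.54 CPM in WT and 57.7 in IL13KO coculture. Cspg4, at 0.0808 and 0.246 CPM, had at most 3 reads in a WT and 10 in an IL13KO coculture. The sum of the fibroblast markers, 6 of 6 detected, was 1774 to 1851 CPM in WT and 3070 to 3711 in IL13KO coculture. Its members went both ways: Dcn (369 and 1650 CPM), Lum (49.0 and 234), Pdgfrb (69.2 and 225) and Pdgfra (633 and 747) had lower means in WT coculture, Thy1 (371 and 255) and Pdpn (328 and 285) higher ones. Of the ILC2 markers, Il5 stood at 12.4 CPM in WT and 2.01 in IL13KO coculture and Gata3 at 5.01 and 2.69. Rora, the most abundant of them, went the other way (41.7 and 55.25 CPM). The sums of the ILC2 markers overlapped, at 56.8 to 73.3 CPM in WT and 59.1 to 61.9 in IL13KO coculture. The leukocyte markers were higher in WT coculture, with sums of 94.6 to 118 CPM against 13.5 to 20.9 in IL13KO coculture. The part of these in the differences was not tested.

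Other genes of the collagen pathway were read from a list of 35 genes, of which 31 were tested. In the WT coculture 21 rose and 1 fell, in the IL13KO coculture 24 rose and 2 fell, and between the cocultures 9 were higher and 5 lower with WT ILC2s, where 62.5%, 57.4% and 23.3% of all genes were called. The median log2 fold changes were 0.80, 0.69 and 0.24, against 0.015, 0.002 and -0.004 over all genes. Of 13 genes of hydroxylation and folding, 10 rose in each coculture (32.8% of all genes with WT and 30.1% with IL13KO ILC2s), and 5 were higher with WT than with IL13KO ILC2s (11.6%). P3h1, a prolyl 3-hydroxylase, went from 50.5 CPM in monoculture to 437 in WT and 251 in IL13KO coculture (3.12 ± 0.15 and 2.31 ± 0.15, or 2.46 and 1.57 after GC and length correction). Fkbp10, a prolyl isomerase of the endoplasmic reticulum, went from 50.0 to 514 and 352 CPM (3.37 ± 0.22 and 2.82 ± 0.22, the latter 2.16 after GC and length correction). P4ha1, a catalytic subunit of prolyl 4-hydroxylase, was at 307, 726 and 412 CPM, higher in WT than in IL13KO coculture by 0.82 ± 0.11 (edgeR adjusted p = 0.000237). Fkbp14, a related isomerase, was called as lower with IL13KO ILC2s (-0.34 ± 0.11, 0.0209). That call ended without IL13KO coculture 1 or 3 (0.0874 and 0.0588), and the value was 0.08 after GC and length correction. The other gene called lower in the IL13KO coculture was Itga2, an integrin chain, at 1.56 CPM in monoculture and 0.775 (-0.99 ± 0.39, 0.0433); it was named after its values were seen.

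Of the secretion genes, 4 of 5 rose with WT and 5 of 5 with IL13KO ILC2s, against 32.8% and 30.1% of all genes. Creb3l1, a transcription factor of the endoplasmic reticulum that drives secretory and collagen genes, stood at 5.83, 6.37, 12.1 and 11.1 CPM in monoculture, 159, 129 and 139 in WT and 31.0, 33.6 and 43.3 in IL13KO coculture. The groups were far apart (4.01 ± 0.23 and 2.02 ± 0.22 against monoculture, or 3.29 and 1.14 after GC and length correction). WT exceeded IL13KO coculture by 1.99 ± 0.22 (edgeR adjusted p = 4.53e-05).

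Among genes of propeptide cleavage, Pcolce2, the paralogue of Pcolce, did not follow it. It went from 27.8, 29.7, 37.3 and 35.2 CPM in monoculture to 478, 496 and 491 in WT and 178, 208 and 211 in IL13KO coculture. The rises were 3.91 ± 0.12 and 2.61 ± 0.11, and WT exceeded IL13KO coculture by 1.29 ± 0.12 (edgeR adjusted p = 8.59e-06), where Pcolce was lower. Among the proteases that remove amino-terminal propeptides, Adamts2 and Adamts14 also parted between the cocultures. Adamts3 was not called there (0.30 ± 0.44, edgeR adjusted p = 0.681). Adamts2 was at 282, 627 and 1215 CPM in monoculture, WT and IL13KO coculture, lower with WT than with IL13KO ILC2s by 0.95 ± 0.16 on the log2 scale (0.000839). Adamts14 was at 0.322, 32.7 and 5.07 CPM, higher with WT ILC2s by 2.69 ± 0.40 (0.000424). Its rises over monoculture were 6.51 ± 0.51 and 3.82 ± 0.55, or 7.57 and 4.88 without monoculture 4, 7.46 and 4.73 by limma-voom, and 5.39 and 2.48 after GC and length correction.

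Of 7 tested collagen receptors and uptake genes, 4 were lower in WT than in IL13KO coculture, against 11.7% of all genes. Itga11, an integrin chain that binds fibrillar collagen, stood at 10.1, 10.1, 22.7 and 12.9 CPM in monoculture, 17.4, 17.4 and 18.1 in WT and 48.3, 51.8 and 44.1 in IL13KO coculture. The IL13KO cocultures stood apart from all others (1.79 ± 0.23 against monoculture, or 0.91 after GC and length correction, and -1.45 ± 0.24 for WT minus IL13KO, edgeR adjusted p = 0.00103). Ddr2, a receptor tyrosine kinase for fibrillar collagen, was at 208, 189 and 286 CPM (-0.60 ± 0.12, 0.00285), and Ddr1, its relative, at 9.37, 30.1 and 66.0 CPM (-1.13 ± 0.31, 0.0197). The Ddr1 difference was not called without WT coculture 3 or 4 (0.0763 and 0.0629) or without IL13KO coculture 2 or 3 (0.0793 and 0.0501). Itga1, an integrin chain that prefers network collagens, was at 42.9, 26.6 and 37.8 CPM. It was the partner gene that fell in the WT coculture (-0.69 ± 0.14, 0.000788), and it lay below IL13KO coculture too (-0.51 ± 0.15, 0.024), not without WT coculture 1 or 3 (0.0655 and 0.12) or IL13KO coculture 1 or 2 (0.117 and 0.0833).

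**Figure D5:**
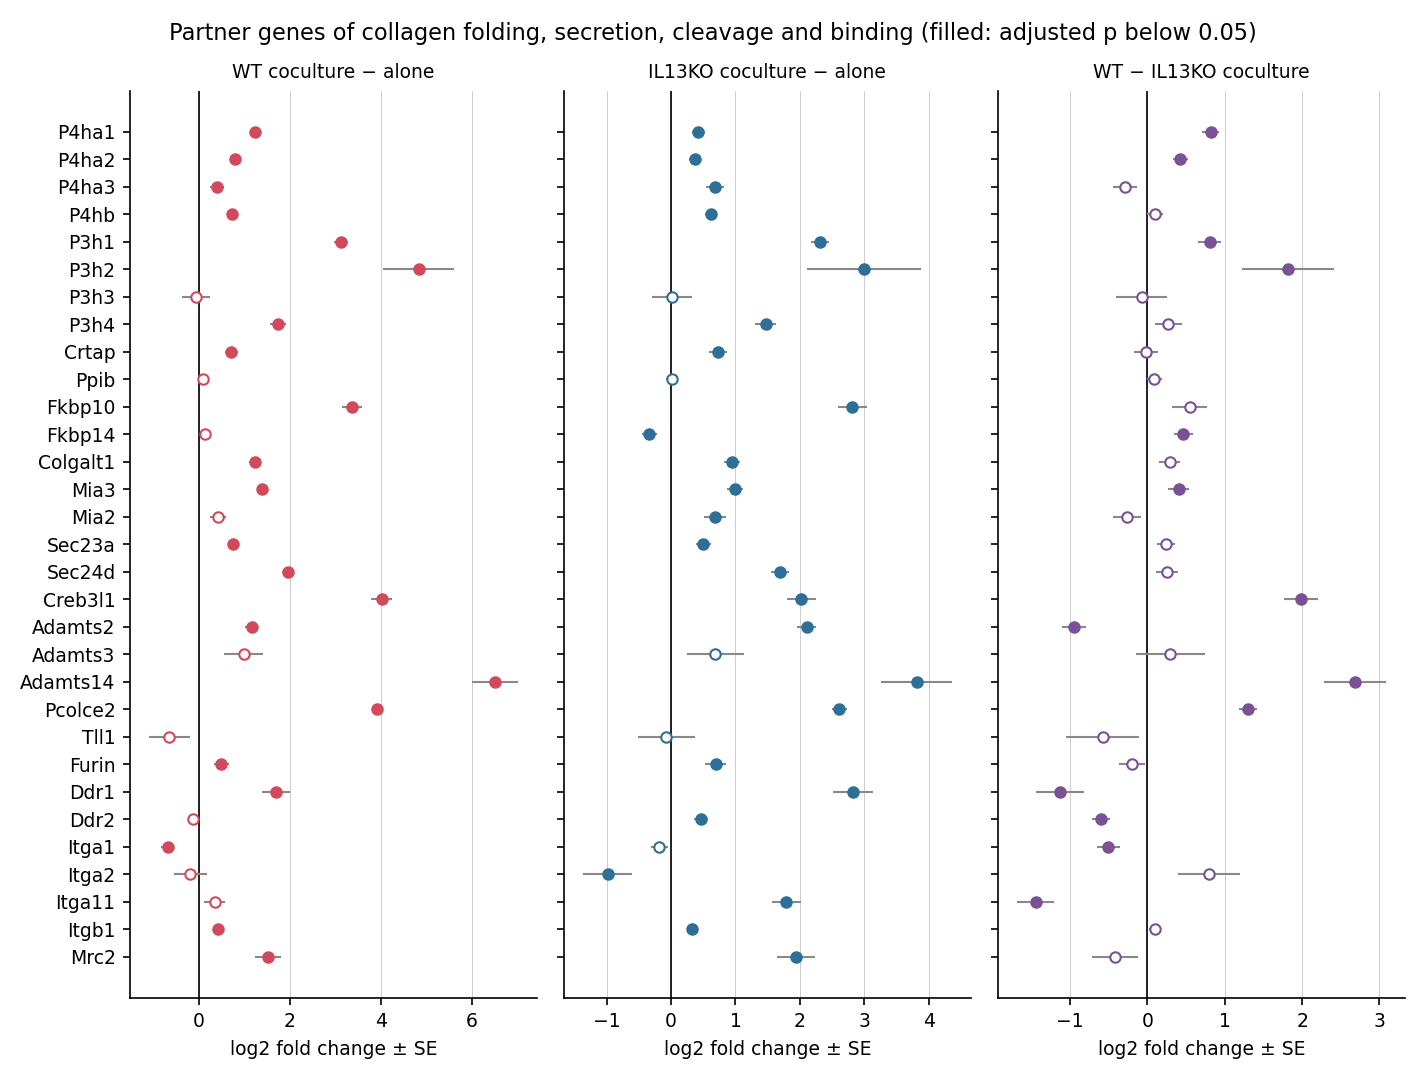
Log2 fold changes ± SE (x axes) of 31 partner genes of collagen folding, secretion, propeptide cleavage and binding in the 3 comparisons; filled points have an adjusted p below 0.05. In the right panel Creb3l1, Adamts14, P3h2 and Pcolce2 lie above 1 and Itga11 and Ddr1 below -1. P3h2 is low, at 2.49 CPM in WT and 0.70 in IL13KO coculture. A gene of the other strand covers 28.35% of its exon bases.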

How the data were processed

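RNA of sorted fibroblasts was sequenced in bulk from 10 libraries. Per the labels' protocols, a low-input kit was used and reads were paired, of 50 nt. The submitters' processing notes name STAR 2.7.7a and Salmon 1.6.0, besides Trimmomatic 0.39, FastQC 0.11.9, Picard and DESeq2, and the build GRCm38.p6; the counting step, its annotation and its strand setting are not given in the sources used here. The deposited counts are whole numbers per gene, for 22731 genes. A second deposited table, of normalised values, was not used. Gene symbols, positions, lengths and GC content came from GENCODE M21, which matched 22647 identifiers. Columns of the WT group are numbered 1, 3 and 4 where the sample titles run from 1 to 3, so they were assigned to the group only.

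Genes were filtered with filterByExpr, scaled by TMM and tested with edgeR 4.0.16 (R 4.3.3) by a quasi-likelihood model of 3 groups over all 10 libraries, with Benjamini-Hochberg adjustment over 16344 genes and a threshold of 0.05. The SE of a log2 fold change is its size divided by the square root of its F statistic. CPM are TMM-normalised. Alternatives were median-of-ratios and upper-quartile scaling, TMM without collagen genes, DESeq2 1.42.0, limma-voom (limma 3.58.1), no filter, a filter of 1 CPM in 3 libraries, only the groups compared, a replicate block by column number, removal of the GC and length trend (loess, span 0.4), a test against a 1.5-fold change, leaving out each library, and, added after the depths were seen, thinning to equal depth.

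Members and lists were chosen with earlier results of these data known. Named were members with at least 50 CPM in a group, or called with groups apart and at least 5 CPM, the rest by counts and ranges; of the partner genes, up to 4 per direction and comparison with the smallest adjusted p among those with at least 10 CPM in a group.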

Additional observations from a re-analysis of the deposited data

Results flagged for a closer look

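Among the 23 tested members, 3 had a monoculture library far from the other 3 on the log2 scale by Dixon's ratio of gap to range (its 95% critical value for 4 samples was passed). They were Plod3 in monoculture 3 (ratio 0.873, 89.1 CPM), Serpinh1 in monoculture 1 (0.869, 5203 CPM) and Col8a1 in monoculture 2 (0.960, 1.93 CPM). Chance alone sets off this test in about 1 in 20 groups, and the 3 results lie in different libraries. No cause was tested. Without monoculture 2, the Col8a1 difference between WT coculture and monoculture was -0.02 on the log2 scale, not called, as with all libraries.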

How the results depend on the processing

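Of the members called in the WT coculture, the IL13KO coculture and between the cocultures, 13 of 16, 12 of 18 and 4 of 14 kept their call and direction in every alternative. The share of all called genes that did so was not computed. Leaving out single libraries gave 13 to 14 members higher and 2 to 4 lower in the WT coculture, 18 and 0 in the IL13KO coculture, and 1 to 3 higher and 8 to 13 lower between them. Over all genes it gave 4907 to 5515 higher and 4163 to 4944 lower in the WT coculture. In the IL13KO coculture it gave 4375 to 5099 higher and 3516 to 4628 lower genes, and between the cocultures 1098 to 2388 and 1238 to 2426. The collagen chains' share of counts ranged from 0.478 to 0.583%, 1.20 to 1.43% and 2.20 to 2.45% in the same order of groups.

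Removing the GC and length trend gave 6 members lower in the WT and 2 in the IL13KO coculture. Between the cocultures, thinning to equal depth left 1 member higher and 9 lower, and 1770 and 1793 over all genes. The test against a 1.5-fold change left 0 members higher and 4 lower there; over all genes it left 2281 lower in the WT coculture, 3092 higher and 1142 lower in the IL13KO coculture, and 538 and 571 between them. Fitting only the groups compared gave 2873 higher and 2933 lower genes between the cocultures. The labels name no shared animal, day or batch, so the numbers were not taken as pairs. Deviations from the group mean correlated at -0.126 to 0.028 between same-numbered libraries and -0.153 to 0.14 between others. With so few libraries per group, these values cannot exclude pairing. The replicate block left 1 member higher and 7 lower between the cocultures, and 986 and 1138 over all genes; the members lost there were Col5a2, Col24a1, Col8a2, Col16a1, Col28a1 and Col5a3, and it changed no member's call against monoculture. Upper-quartile scaling lowered the median of all genes from 0.015 to -0.106 in the WT and from 0.002 to -0.102 in the IL13KO coculture and changed the sign of no member.

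Signs turned with the GC and length trend removed for Col1a2 (WT -0.56, IL13KO -0.31), Col7a1 (WT -0.72), Col27a1 (IL13KO -0.88), Col8a2 (IL13KO -1.0), Col23a1 (IL13KO -0.58), Itga11 (WT -0.40), Fkbp14 (IL13KO 0.08) and Plod3 (between cocultures 0.05). The other turns were of values not called. With single libraries left out, the WT coculture difference ranged from -0.18 to 0.14 for Col12a1, from -0.24 to 0.04 for Col14a1 and from -0.02 to 0.39 for Col8a1. The IL13KO difference ranged from -0.29 to 0.95 for Col11a1, from -0.07 to 0.95 for Col27a1 and from -0.57 to 0.39 for Col7a1, and the difference between the cocultures from -0.06 to 0.10 for Bmp1. Col12a1 was at 0.03 by limma-voom and 0.02 with no filter (WT), Col11a1 at -0.03 by limma-voom (IL13KO), and Col7a1 at 0.17 by limma-voom and 0.13 at equal depth (IL13KO). The cause of these changes was not tested. Thinned to equal depth, the calls of Col11a1, Col24a1, Col5a3 and Col28a1 between the cocultures and of Col11a1 in the WT coculture were lost.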
